A study of Mus musculus with 88 samples.

Results

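Transcripts of 10 genes from 2 related groups were followed in mouse cortex after a controlled cortical impact, a device-driven blow to the exposed cortex. Fkbp5, Tsc22d3, Sgk1 and Zbtb16 are genes that glucocorticoids induce, and Per1, Per2, Dbp, Nr1d1, Nr1d2 and Arntl (Bmal1) belong to the circadian clock. The members are named by symbol, a rule that applies no threshold on a measured value, although the set was drawn up with earlier results of these data known. All 10 were found by their Ensembl identifiers among the 54532 genes of the count table. Each of the 10 passed the filter on low counts in every fit. The question was whether each transcript changed on both sides of the brain, which is called systemic here, or on the injured side alone, which is called local.

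The animals were female and male C57BL/6 mice, 8 to 9 weeks old at injury and housed on a 12 h light and dark cycle. The labels describe no surgery for the naive mice. Injured mice received 1 impact over the right somatosensory cortex under isoflurane, through a 3 mm craniotomy and to a depth of 1 mm, with buprenorphine (0.05 mg/kg), and were killed 24 h or 72 h later. After perfusion, a 4 mm punch was taken at the injury site (ipsilateral) and at the opposite cortex (contralateral); in naive mice the right punch counts as ipsilateral. RNA with poly-A tails was sequenced from 88 libraries of 44 animals, of which 87 were compared: 13, 15 and 15 ipsilateral and 13, 15 and 16 contralateral libraries at naive, 24 h and 72 h. No sham-operated group was analysed here, so anaesthesia, surgery, analgesia and the impact cannot be told apart. The hour of collection is not given in the sources used here, and corticosterone is not among the 5 plasma hormones in the labels.

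Glucocorticoids act through the glucocorticoid receptor, which moves to the nucleus on binding hormone and raises transcription from response elements near its targets. Circulating corticosterone reaches both hemispheres, and it rises with stress and once a day before the active phase. In the molecular clock, the activators ARNTL and CLOCK bind E-boxes and drive the period genes, Dbp and the Nr1d genes. The PER and CRY proteins then repress the activators, while the Nr1d proteins (REV-ERB alpha and beta) repress Arntl from a separate DNA element, so Arntl runs opposite in phase to Dbp and Nr1d1. Per1 lies on both pathways, since glucocorticoids induce it too. Most of these transcripts therefore depend on the hour at which tissue is taken.

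DNA letters tied to these pathways were searched for in the 8 members with promoter windows in RefSeq (build GRCm38.p6). There were 17 windows in all, each from 250 bases before to 50 after a start site. The search covered 4 motifs on both strands: the E-box CACGTG, the D-box TTATGTAA or TTACGTAA, the REV-ERB and ROR element core TAGGTCA, and a palindromic form of the glucocorticoid response element, GNACA and TGTNC with any 3 bases between them, where N is any base. Among 32851 RefSeq windows of that length, 7.15% held the E-box, 1.06% the D-box, 2.61% the TAGGTCA core and 0.47% the glucocorticoid form. In the printed stretches no match overlaps another. They are those of members that held a match, 5′ to 3′ on the gene's strand with the match in capitals. These are a 30-base stretch of Arntl at chr7:113207530-113207559 (plus strand, inside the annotated 5′ untranslated exon), and 120 bases upstream of a start of Sgk1 at chr10:21993640-21993759 (plus), of Per1 at chr11:69098699-69098818 (plus) and of Fkbp5 at chr17:28486280-28486399 (minus).
Arntl: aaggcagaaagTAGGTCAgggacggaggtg
Sgk1: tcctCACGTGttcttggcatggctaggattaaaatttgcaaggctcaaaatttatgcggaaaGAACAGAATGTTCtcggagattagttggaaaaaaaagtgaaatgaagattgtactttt
Per1: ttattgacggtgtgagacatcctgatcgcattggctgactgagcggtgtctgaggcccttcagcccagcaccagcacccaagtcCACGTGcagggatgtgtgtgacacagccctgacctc
Fkbp5: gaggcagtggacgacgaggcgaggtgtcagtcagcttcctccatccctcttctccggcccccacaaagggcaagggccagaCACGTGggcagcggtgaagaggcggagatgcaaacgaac
The Sgk1 stretch held both an E-box and the glucocorticoid form. Tsc22d3, Dbp, Nr1d1 and Nr1d2 held none of these letters in their windows. A match describes the letters only and says nothing of binding in these tissues.

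Libraries held 10604917 to 26357622 counts, and the lowest count of a member in any compared library was 104. The 8 neuronal markers summed to at least 3108 CPM (the count scaled to a common library size) in every compared punch, which fits the label of cortex. The labels name 3 batches: A has 9 naive and 7 animals at 24 h, B has 4 naive, 8 at 24 h and 6 at 72 h, and C has 10 animals at 72 h only. A comparison of 72 h with naive therefore rests on batch B to bridge them, and within C time and batch cannot be told apart. One animal, female LF3 at 72 h (batch B), stood apart: its summed neuronal marker level was 15637 CPM contralaterally and 14448 CPM ipsilaterally, where the other 72 h libraries reached at most 8096 and 6141. Its mitochondrial share of counts was 7.80% contralaterally and 10.5% ipsilaterally, and that of the other 72 h libraries 2.8002% to 4.11% and 2.82% to 3.76%. The part of this in its values was not tested. Without LF3 the contralateral differences at 72 h from naive changed sign for 5 members that passed neither with nor without it (Dbp, Tsc22d3, Nr1d1, Per1 and Zbtb16), and these values stand beside each gene. The ipsilateral library labelled PF1 (female, 72 h) had 0.112 CPM of Xist and 148 CPM summed over 4 Y-linked genes, a male pattern. The ipsilateral library of PM1 was its mirror, with 489 CPM of Xist and 0 of the Y-linked genes, while the contralateral libraries of both animals matched their labels. PM1, whose ipsilateral labels contradict each other, went into no comparison there; PF1 was kept as labelled and enters the female 72 h values and the pairs within animals. Leaving out PF1 changed 1 call of the members in the tests over both sexes (Fkbp5, given with its values); the tests within 1 sex were not run without it.

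In the contralateral cortex of naive mice the order of levels per length was set by the median CPM per kilobase of exon. Nr1d1 (35.4) and Nr1d2 (22.7) led, followed by Dbp (17.9), Per1 (17.8), Tsc22d3 (12.8), Sgk1 (11.5), Zbtb16 (11.1), Per2 (7.30), Arntl (6.35) and Fkbp5 (2.22). Dbp spread from 4.14 to 54.1 CPM per kilobase and Nr1d2 only from 19.7 to 28.3, so apart from Fkbp5 each member overlapped its neighbours in this order. Between the 2 sides of naive mice none of the 10 differed (0 called; 0% of 19946 genes were called, 574 had an unadjusted p under 0.05 and limma also called 0). The clock output gene Dbp still differed within single naive animals, with an ipsilateral minus contralateral difference of −1.198 to 1.74 on the log2 scale, although its median difference was 0.01.

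Naive mice of the 2 batches did not share a baseline. On the contralateral side Dbp lay at 82.8 to 162 CPM in the 4 naive animals of batch B and at 12.4 to 71.0 CPM in the 9 of batch A, with no overlap. Batch B was higher by 1.48 ± 0.23 (log2, SE) for Dbp, 0.87 ± 0.12 for Nr1d1, 0.87 ± 0.15 for Fkbp5, 0.68 ± 0.13 for Tsc22d3 and 0.60 ± 0.12 for Sgk1, and lower by 0.45 ± 0.10 for Arntl (edgeR quasi-likelihood, adjusted p from 1.12e-05 to 0.000663). These 6 of 10 compare with 42.3% of 18794 genes called between the batches. Zbtb16, Per1, Per2 and Nr1d2 did not pass (adjusted p 0.139 to 0.859). The same 6 were called on the ipsilateral side, where 42.7% of 19175 genes were.

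**Figure D1:**
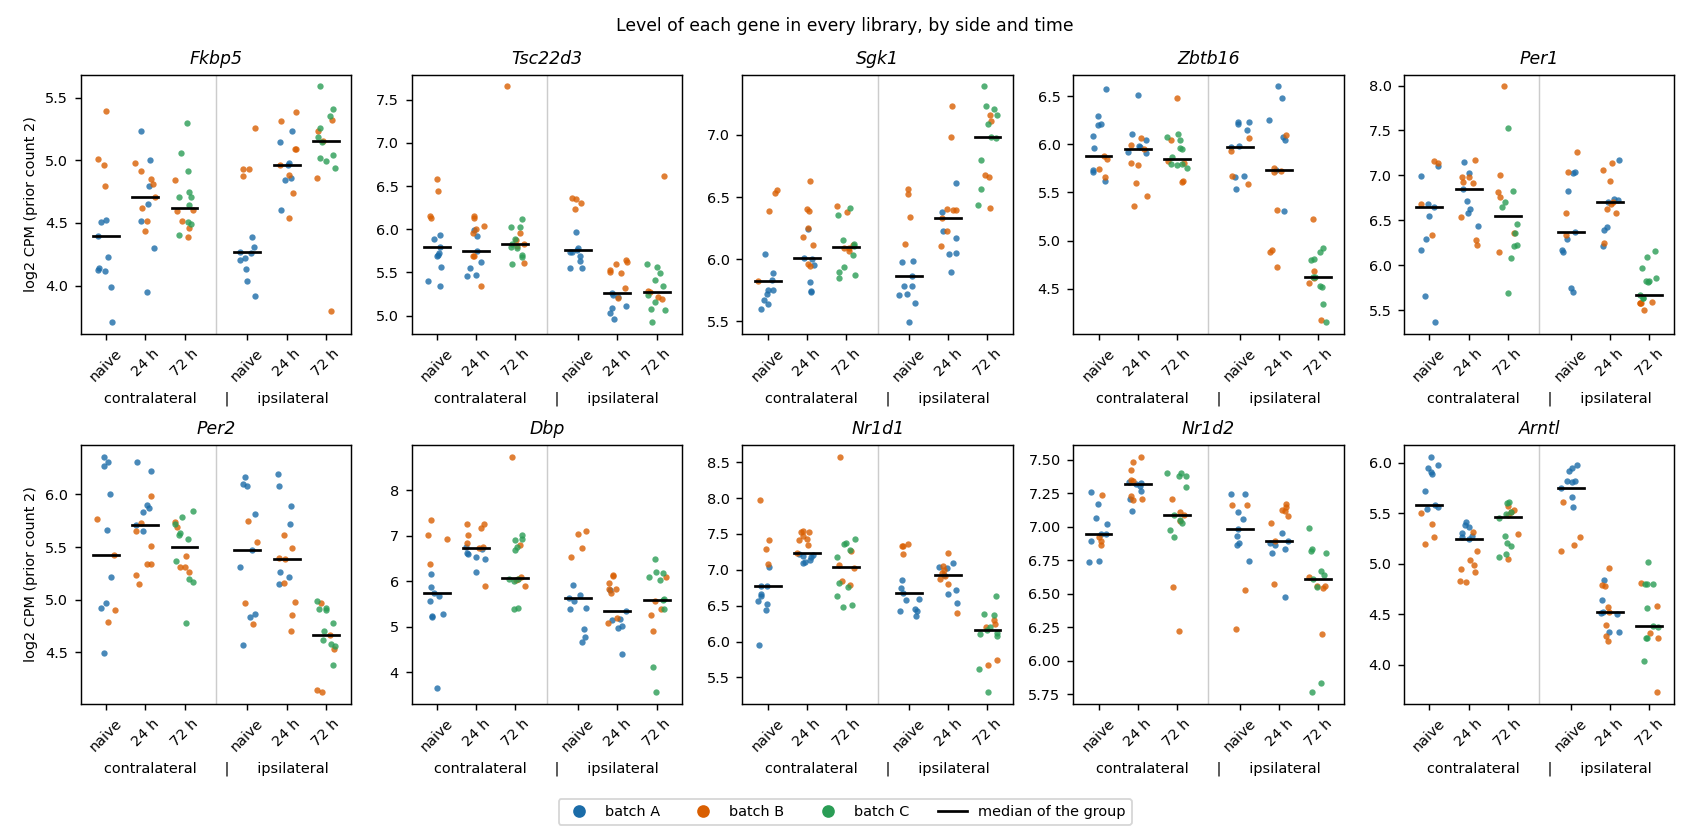
Level of each of the 10 transcripts in every compared library, in log2 CPM (prior count 2), by side and time, with each point 1 animal, coloured by batch, and bars at the group median. Arntl at 24 h and 72 h lies below every naive library on the ipsilateral side, and the highest contralateral point of Dbp at 72 h is LF3 (426 CPM).

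On the injured side at 24 h, 5 of 10 members passed the test, 2 higher (Fkbp5, Sgk1) and 3 lower (Tsc22d3, Dbp, Arntl), in a comparison where 43% of 19126 genes were called, 22.9% higher and 20.1% lower. At 72 h, 9 of 10 passed, 1 higher (Sgk1) and 8 lower, against 48.5% of genes called, 27.8% higher and 20.7% lower. From 24 h to 72 h a further 5 fell (Zbtb16, Per1, Per2, Nr1d1, Nr1d2), where 37% of genes were called and 15.3% called lower. Of these later falls, that of Per2 missed the threshold without the male LM2 (−0.61, adjusted p = 0.0537) and that of Nr1d2 without LF3 (−0.40, adjusted p = 0.0518). On the contralateral side at 24 h only Nr1d2 (higher) and Arntl (lower) passed, where 2.1% of 18436 genes were called, 0.819% higher and 1.29% lower. At 72 h none passed there (0 of 10; 0.26% of genes called), and between 24 h and 72 h the same 2 genes moved back (9.21% called). The side test set the ipsilateral minus contralateral difference against the same difference in naive mice. It asks whether the 2 sides changed unequally, and a change on either side can make it pass. At 24 h 7 of 10 members passed, 2 higher and 5 lower on the injured side relative to the other (30.7% of 19946 genes called, 16% higher and 14.7% lower). At 72 h 10 of 10 passed, 2 higher and 8 lower (48.2% called, 25.1% higher and 23.1% lower). Nr1d1 and Nr1d2 passed at 24 h without an ipsilateral difference from naive that passed (0.00 and −0.03, edgeR adjusted p = 0.993 and 0.827). Their contralateral differences were 0.30 and 0.31, and that of Nr1d2 passed, so over all animals the side test does not show a local change for these 2. For Nr1d1 the ipsilateral value joins a rise in batch A (0.30) and a fall in batch B (−0.45), both of which passed. The contralateral value of Nr1d1 in batch B was −0.05. In batch B alone the side test at 24 h passed for 0 members, and in batch A alone (limma on side differences) for Tsc22d3, Sgk1, Dbp, Nr1d2 and Arntl. At 72 h it passed in batch B alone, the one batch with both naive and 72 h animals, for 6 of 10 (not Fkbp5, Sgk1, Dbp and Nr1d2, adjusted p = 0.289, 0.0794, 0.136 and 0.819), and with a side by batch term for 8 of 10. Fkbp5, Sgk1 and Nr1d1 lay near the threshold at 24 h: in limma on side differences Fkbp5 missed it with all animals (adjusted p = 0.0536), Sgk1 without any 1 of 14 animals and Nr1d1 without any 1 of 29. Within the injured animals themselves the sides differed for 8 members at 24 h and 10 at 72 h, where 47.7% and 61.7% of genes were called. Read against these backgrounds, a share such as 5 of 10 on the injured side lies near that of all genes.

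**Figure D2:**
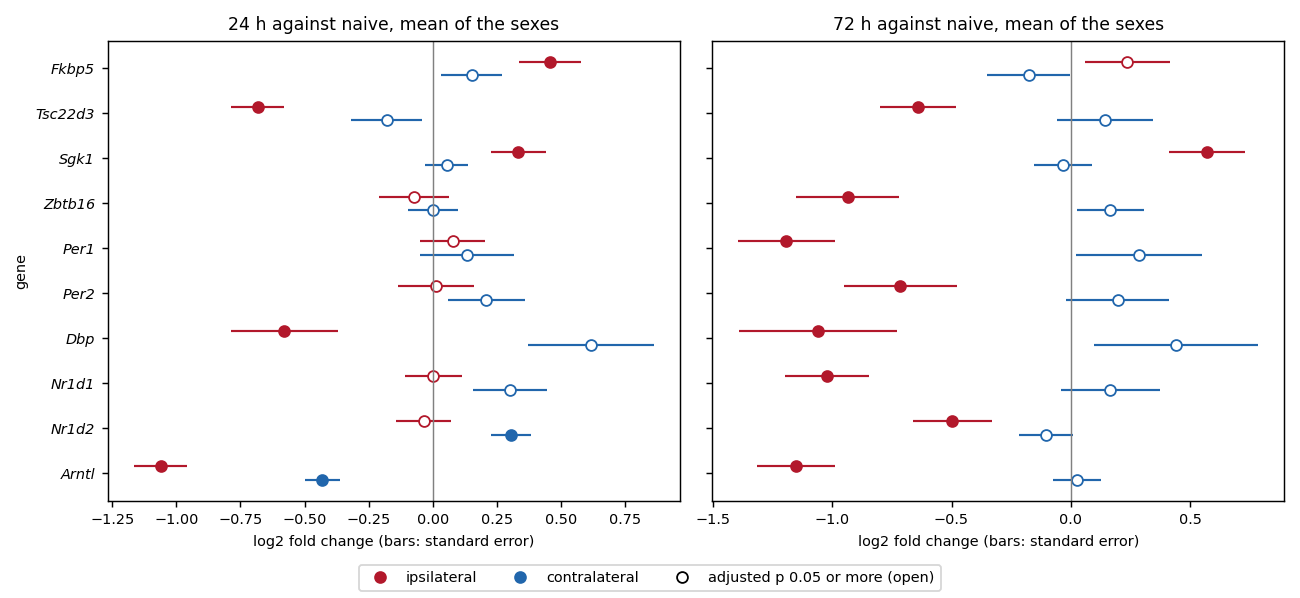
Log2 change against naive of each transcript, with standard errors, for the ipsilateral and contralateral side at 24 h and 72 h, and filled points for an adjusted p under 0.05. At 24 h Arntl lies below 0 on both sides and Nr1d2 above 0 on the contralateral side alone; at 72 h the called points are all ipsilateral.

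Fkbp5 (chr17:28399094-28517527, minus strand) encodes a co-chaperone that lowers the affinity of the glucocorticoid receptor for its hormone. On the ipsilateral side it measured 15.01 to 38.2 CPM in naive mice (median 19.1), 23.2 to 41.8 at 24 h (median 31.1) and 13.8 to 48.1 at 72 h (median 35.5). The groups overlapped, with the 72 h minimum in LF3. It rose at 24 h by 0.46 ± 0.12 (log2, SE; adjusted p = 0.00176) and the difference at 72 h was 0.24 ± 0.18 (adjusted p = 0.281), or 0.39 with p adjusted to 0.0434 without LF3. Contralateral medians were 20.98, 26.1 and 24.5 CPM at naive, 24 h and 72 h, with differences of 0.15 ± 0.12 and −0.18 ± 0.17 from naive (adjusted p = 0.621 and 0.664). The side test gave 0.31 ± 0.12 at 24 h (adjusted p = 0.0458) and 0.43 ± 0.12 at 72 h (adjusted p = 0.00242), and the ipsilateral punch was the higher one in 12 of 15 animals and 14 of 15. Without the library PF1 the side test at 24 h missed the threshold (adjusted p = 0.0516), as it did at 72 h with a side by batch term (0.38, adjusted p = 0.118). In a fit of naive and 24 h animals with an effect per batch, 41.6% of genes were called ipsilaterally in batch A, 42.1% in batch B and 9.72% between them (contralaterally 1.07%, 13.9% and 3.8%). Within batch A the ipsilateral Fkbp5 difference was 0.79 ± 0.10 (adjusted p = 3.49e-07) against −0.04 ± 0.12 within batch B (adjusted p = 0.828), and the 2 batches differed by −0.83 ± 0.16 (adjusted p = 0.0182).

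Sgk1 (chr10:21882184-21999903, plus strand) encodes a kinase that glucocorticoids and mineralocorticoids induce and that regulates ion transport. Its ipsilateral level was 45.01 to 94.4 CPM in naive mice (median 58.1), 59.4 to 150 at 24 h (median 80.4) and 85.2 to 168 at 72 h (median 126). Only the top of the naive range reached the bottom of the 72 h range, which was LF3. The gene rose by 0.33 ± 0.11 at 24 h (adjusted p = 0.00948) and 0.57 ± 0.16 at 72 h (adjusted p = 0.00294). Contralateral medians of 56.5, 64.3 and 68.3 CPM gave differences of 0.05 ± 0.08 and −0.03 ± 0.12 from naive, neither of which passed (adjusted p = 0.828 and 0.922). Within animals Sgk1 was higher on the injured side in 14 of 15 at each time, and the side test gave 0.26 ± 0.10 at 24 h (adjusted p = 0.0355) and 0.80 ± 0.10 at 72 h (adjusted p = 2.46e-09). Within batch A the ipsilateral difference at 24 h was 0.47 ± 0.12 (adjusted p = 0.00218) and within batch B 0.11 ± 0.15 (adjusted p = 0.598). The difference between batches did not pass (adjusted p = 0.204).

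Tsc22d3 (chrX:140539528-140600659, minus strand) encodes GILZ, an anti-inflammatory mediator of glucocorticoids. It fell where Fkbp5 and Sgk1 rose. Ipsilateral levels were 46.6 to 82.2 CPM in naive mice (median 54.1), 31.0 to 49.999 at 24 h (median 38.3) and 30.3 to 97.9 at 72 h (median 38.6), the last maximum being LF3. The 24 h range overlapped the naive range only at its top. The fall was −0.68 ± 0.10 at 24 h (adjusted p = 5.23e-07) and −0.64 ± 0.16 at 72 h (adjusted p = 0.000998), or −1.02 at 72 h without LF3. From 24 h to 72 h the difference was 0.04 ± 0.15 (adjusted p = 0.845), and −0.33 (adjusted p = 0.00973) without LF3. Contralateral medians stayed within 53.7 to 56.6 CPM, with differences of −0.18 ± 0.14 and 0.14 ± 0.20 (adjusted p = 0.612 and 0.779). The contralateral level of LF3 was 201 CPM, and the next highest animal at 72 h had 69.3; without LF3 the contralateral 72 h difference was −0.35 (adjusted p = 0.577). The side test gave −0.49 ± 0.09 at 24 h (adjusted p = 2.59e-05) and −0.62 ± 0.09 at 72 h (adjusted p = 1.35e-07), with 14 of 15 and 15 of 15 animals lower on the injured side. Ipsilateral Tsc22d3 was lower at 24 h within both batches, by −0.57 ± 0.07 in A and −0.88 ± 0.08 in B. On the contralateral side that fit gave −0.45 ± 0.13 in batch B (adjusted p = 0.0201) and 0.01 ± 0.11 in A, and the difference between batches did not pass (adjusted p = 0.0948). A fit of batch B alone, in which no gene was called contralaterally at 24 h, gave −0.40 (adjusted p = 0.582).

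Zbtb16 (chr9:48654297-48836222, minus strand) encodes PLZF, a zinc-finger repressor. Its ipsilateral range was 46.3 to 74.9 CPM in naive mice (median 62.7), 26.3 to 97.0 at 24 h (median 53.0) and 17.7 to 37.3 at 72 h (median 24.4). At 72 h every injured punch lay below every naive one, while at 24 h the injured punches spread beyond the naive range in both directions. The change was −0.07 ± 0.14 at 24 h (adjusted p = 0.705) and −0.93 ± 0.22 at 72 h (adjusted p = 0.000416). Contralateral medians were 58.9, 61.9 and 57.4 CPM, and neither difference passed (adjusted p = 0.997 and 0.609); the one at 72 h was 0.17, and −0.0042 without LF3. The side test went from −0.15 ± 0.14 at 24 h (adjusted p = 0.457) to −1.204 ± 0.14 at 72 h (adjusted p = 4.89e-10), with 15 of 15 animals lower on the injured side at 72 h.

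**Figure D3:**
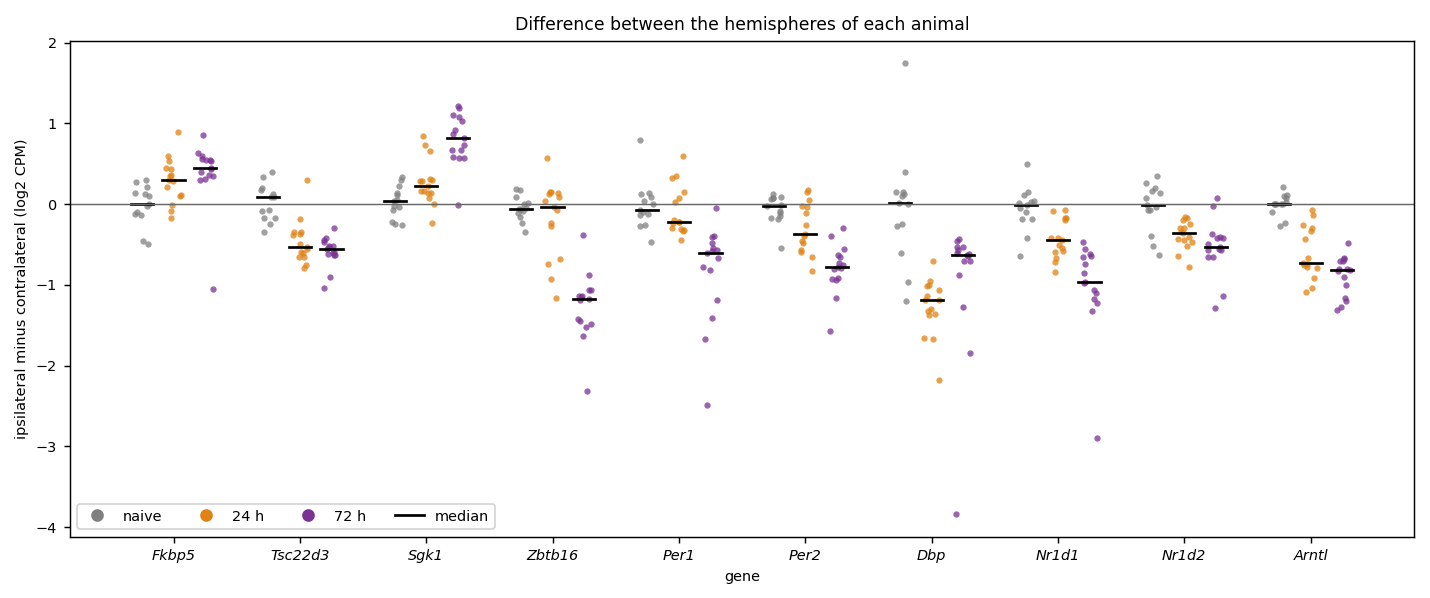
Ipsilateral minus contralateral log2 CPM of each transcript within each animal, naive, 24 h and 72 h, with a line at 0 and bars at the group median. Naive animals scatter around 0; at 72 h Tsc22d3, Zbtb16, Per1, Per2, Dbp, Nr1d1 and Arntl lie below 0 in 15 of 15 animals.

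Among the clock genes, Per1 (chr11:69095217-69109960, plus strand) and Per2 (chr1:91415982-91459324, minus strand) encode the period repressors, which are also fast-responding targets of light and hormones. Ipsilateral Per1 was 51.8 to 153 CPM in naive mice (median 82.7), 74.0 to 144 at 24 h (median 104) and 45.2 to 71.4 at 72 h (median 50.7). Ipsilateral Per2 was 23.7 to 71.6 CPM (median 44.2), 25.9 to 73.2 (median 41.8) and 17.3 to 31.6 (median 25.3) at the same times. Both 72 h ranges reached into the naive range from below, and for Per1 the 72 h range lay wholly below the 24 h range. At 24 h the differences were 0.08 ± 0.13 for Per1 and 0.01 ± 0.15 for Per2 (adjusted p = 0.659 and 0.959), and at 72 h Per1 fell by 1.19 ± 0.20 (adjusted p = 4.88e-06) and Per2 by 0.72 ± 0.24 (adjusted p = 0.0116). Per2 at 72 h missed the threshold without the male LM2 (−0.60, adjusted p = 0.0550). Contralateral medians were 100.0, 115 and 93.9 CPM for Per1 and 42.8, 52.4 and 45.1 CPM for Per2, with no difference from naive that passed (adjusted p 0.577 to 0.798). The side test at 72 h gave −0.84 ± 0.16 for Per1 (adjusted p = 1.97e-05) and −0.74 ± 0.11 for Per2 (adjusted p = 7.59e-08), and at 24 h it passed for neither (adjusted p = 0.848 and 0.0969). The contralateral Per1 of LF3 was 254 CPM, above the 185 of the next animal at 72 h, and without LF3 the side test for Per1 was −0.73. The contralateral difference of Per1 from naive at 72 h was 0.29 with LF3 and −0.10 without it (adjusted p = 0.640 and 0.997).

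Dbp (chr7:45705088-45710203, plus strand) encodes an output transcription factor that binds D-boxes and has one of the widest daily ranges of any clock transcript. Contralateral levels ran from 12.4 to 162 CPM in naive mice (median 53.5), from 59.7 to 153 at 24 h (median 106) and from 41.6 to 426 at 72 h (median 67.2), or at most 129 at 72 h without LF3. Ipsilateral levels were 25.2 to 137 (median 49.7), 21.1 to 69.7 (median 40.5) and 11.6 to 89.2 CPM (median 47.8). The ranges overlapped on both sides, and the 24 h median lay above the naive one contralaterally and below it ipsilaterally. The contralateral difference was 0.62 ± 0.24 at 24 h (adjusted p = 0.222; 0.61 and 0.0422 without LF3) and 0.44 ± 0.34 at 72 h (adjusted p = 0.567; −0.33 and 0.976 without LF3), while the ipsilateral level fell by 0.58 ± 0.21 at 24 h (adjusted p = 0.0231) and by 1.06 ± 0.33 at 72 h (adjusted p = 0.00725). The side test gave −1.22 ± 0.24 at 24 h (adjusted p = 6.16e-05) and −0.86 ± 0.24 at 72 h (adjusted p = 0.00255; −0.70 without LF3). In 15 of 15 animals at each time the injured side was the lower one, by a median of 1.19 at 24 h and 0.63 at 72 h (log2).

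The side on which Dbp differed from naive was not the same in the 2 batches. Contralateral Dbp was higher than naive in batch A by 1.09 ± 0.21 (adjusted p = 0.00499) and not in batch B (−0.03 ± 0.24, adjusted p = 0.948), and these effects differed by −1.12 ± 0.32 (adjusted p = 0.0436). Ipsilateral Dbp was lower than naive in batch B by −1.15 ± 0.21 (adjusted p = 5.99e-05) and not in batch A (−0.19 ± 0.18, adjusted p = 0.417), a difference of −0.95 ± 0.28 (adjusted p = 0.0333). The gap between sides at 24 h was nearer in size: a median of −1.36 over the 7 animals of A and −1.10 over the 8 of B. Dbp shares 539 bases, 18.0% of its exonic length, with Sphk2 on the opposite strand, and the strand setting of the counting is not given, so its reads cannot be fully told apart from those of Sphk2.

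Nr1d1 (chr11:98767932-98775333, minus strand) and Nr1d2 (chr14:18204054-18239127, minus strand) encode the heme-binding repressors REV-ERB alpha and beta. Contralateral Nr1d1 was 61.7 to 252 CPM in naive mice (median 109), 137 to 186 at 24 h (median 151) and 89.2 to 381 at 72 h (median 132; at most 172 without LF3). Every contralateral library at 24 h exceeded the naive median, but the difference of 0.30 ± 0.14 did not pass (adjusted p = 0.351), and at 72 h it was 0.17 with LF3 and −0.27 without it (adjusted p = 0.749 and 0.929). Ipsilateral Nr1d1 was 81.8 to 165 CPM (median 102), 84.5 to 151 (median 121) and 39.1 to 99.1 (median 71.7), overlapping in each pair of groups. It differed by 0.00 ± 0.11 at 24 h (adjusted p = 0.993) and fell by 1.02 ± 0.18 at 72 h (adjusted p = 6.83e-06). In the fit with an effect per batch, Nr1d1 at 24 h was higher than naive in batch A on both sides (contralateral 0.54 ± 0.11, adjusted p = 0.00706; ipsilateral 0.30 ± 0.09, adjusted p = 0.0106), where for Dbp the contralateral difference alone passed. In batch B it was lower on the ipsilateral side (−0.45 ± 0.11, adjusted p = 0.00167; −0.42 and 0.0501 in a fit of batch B alone) and at −0.05 ± 0.13 on the contralateral side. Its exons share 263 bases (8.55%) with Thra on the opposite strand, with the same uncertainty.

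Contralateral Nr1d2 was 107 to 153 CPM in naive mice (median 123), 139 to 184 at 24 h (median 159) and 74.6 to 169 at 72 h (median 136). The 24 h libraries overlapped only the upper naive ones. It rose by 0.31 ± 0.08 at 24 h (adjusted p = 0.0253), with 0.28 ± 0.07 in batch A and 0.35 ± 0.09 in batch B (adjusted p = 0.0508 and 0.0107, joint fit), and fell from 24 h to 72 h by 0.41 ± 0.10 (adjusted p = 0.0149). The call at 24 h was lost in fits of batch A or batch B alone (0.27 and 0.41, adjusted p = 0.0861 and 0.486), with no scaling (0.0678) and with no filter on low counts (0.0530). It was also lost without the female DF2 (0.29, adjusted p = 0.0522), the male KM2 (0.28, 0.0700) or the male KM3 (0.29, 0.0634), and the later fall was lost without LF3 (−0.31, 0.199), with no scaling, with no batch term and in batch B alone. Ipsilateral Nr1d2 was 75.2 to 152 (median 127), 89.0 to 144 (median 119) and 54.3 to 127 CPM (median 97.6), −0.03 ± 0.11 from naive at 24 h (adjusted p = 0.827) and −0.50 ± 0.17 at 72 h (adjusted p = 0.0122). The side test passed for both genes: −0.37 ± 0.14 and −0.34 ± 0.11 for Nr1d1 and Nr1d2 at 24 h (adjusted p = 0.0436 and 0.0112), and −0.96 ± 0.15 and −0.52 ± 0.11 at 72 h (adjusted p = 4.17e-07 and 6.52e-05). For Nr1d2 at 72 h it fell to −0.28 with a side by batch term (adjusted p = 0.184) and to −0.085 in batch B alone (adjusted p = 0.819), and Nr1d1 at 24 h missed the threshold with that term (adjusted p = 0.0751). All 15 animals at 24 h had less of either transcript on the injured side.

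Arntl (chr7:113207465-113314126, plus strand) encodes BMAL1, the obligate activator of the clock. In the fits over all batches it was the only member that passed in the same direction on both sides, and it did so at 24 h. With an effect per batch, Nr1d1 also passed higher on both sides in batch A (contralateral 0.54, ipsilateral 0.30). Tsc22d3 passed lower on both sides in batch B (−0.45 and −0.88), though not contralaterally in a fit of batch B alone. Contralateral Arntl levels were 36.4 to 66.6 CPM in naive mice (median 47.8), 28.1 to 42.4 at 24 h (median 37.8) and 32.9 to 48.8 at 72 h (median 44.1). Ipsilateral levels were 34.8 to 62.8 (median 53.6), 18.7 to 31.0 (median 22.8) and 13.1 to 32.2 CPM (median 20.7). On the ipsilateral side no injured punch reached the lowest naive one at either time, whereas the contralateral groups overlapped. Arntl fell by 0.43 ± 0.07 contralaterally (adjusted p = 0.000104), to 0.742 of the naive level, and by 1.06 ± 0.10 ipsilaterally (adjusted p = 4.13e-11), to 0.479 of it. At 72 h the contralateral difference was 0.03 ± 0.10 (adjusted p = 0.927), after a rise of 0.46 ± 0.09 from 24 h (adjusted p = 0.00434), while the ipsilateral level stayed lower than naive by 1.15 ± 0.16 (adjusted p = 2.31e-07). The side test also passed, at −0.59 ± 0.10 at 24 h (adjusted p = 2.7e-06) and −0.88 ± 0.10 at 72 h (adjusted p = 1.34e-10), with 15 of 15 animals lower on the injured side each time. Within batches the contralateral 24 h difference was −0.49 ± 0.08 in A (adjusted p = 0.00133) and −0.35 ± 0.10 in B (adjusted p = 0.0207) in the joint fit. Fitted on batch A alone it passed (−0.49, adjusted p = 0.00325) and on batch B alone it did not (−0.29, adjusted p = 0.492). The contralateral rise from 24 h to 72 h missed the threshold with no scaling, with no batch term and in batch B alone (adjusted p = 0.0810, 0.116 and 0.315). With no batch term the contralateral level at 72 h was lower than naive, by −0.30 (adjusted p = 0.0211).

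Within the 72 h animals of batch C, which the labels name with the letters S or T, contralateral Dbp, Nr1d1, Nr1d2 and Arntl fell into ranges that did not overlap, and the other 6 members overlapped. The 5 S animals had 103 to 129 CPM of Dbp and 145 to 172 of Nr1d1, and the 5 T animals 41.6 to 65.7 and 89.2 to 113. Nr1d2 was 157 to 169 CPM in S and 122 to 136 in T. Arntl was the reverse, 33.3 to 38.5 in S and 43.8 to 48.8 in T. Per1 was 81.6 to 113 CPM in S and 51.3 to 185 in T, and Per2 36.5 to 55.002 and 27.3 to 57.1. What the letters stand for is not given in the sources used here, and no test was made of this split. The share of all genes with ranges apart between S and T was not counted. These gaps therefore cannot be read as particular to the clock genes. Each letter in the animal names occurs at a single time, and all naive animals of batch B carry the letter K. On either side taken alone, differences between letters were therefore not separated from those between times, or between the naive animals of the batches.

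Genes of the same pathways were taken from lists beyond the 10. Of 16 other glucocorticoid-induced genes, 9 rose and 2 fell on the ipsilateral side at 24 h (median 0.58, against 0.01 over all genes) and 9 rose and 5 fell at 72 h (median 0.50, against 0.06). Over all genes 22.9% were called higher and 20.1% lower at 24 h, and 27.8% and 20.7% at 72 h. The list was led by Lcn2, an iron-binding acute-phase protein (7.30 ± 0.37 at 24 h, adjusted p = 1.94e-19), Cebpd, an acute-phase transcription factor (3.90 ± 0.20, adjusted p = 2.19e-19), and Cdkn1a, the cell-cycle inhibitor p21 (2.00 ± 0.19, adjusted p = 1.2e-11), which other signals also induce. Contralaterally at 24 h, 1 rose (Lcn2, 2.85 ± 0.47, adjusted p = 0.00016) and 2 fell (Cdkn1a, −0.77 ± 0.19, adjusted p = 0.0214; Pdk4, a brake on pyruvate dehydrogenase, −0.43 ± 0.11, adjusted p = 0.0286), where 2.1% of all genes were called, and at 72 h none passed (0 of 16; 0.26% of genes). The side test passed for 12 higher and 2 lower at 24 h (16% and 14.7% of all genes) and for 10 and 3 at 72 h (25.1% and 23.1%). Of 7 genes of the receptor pathway, the receptor Nr3c1 and the enzyme Hsd11b1, which regenerates active hormone, were lower on the ipsilateral side at 24 h (−0.44 ± 0.09 and −0.41 ± 0.11; adjusted p = 0.000136 and 0.00218) and at 72 h (−0.50 ± 0.14 and −0.85 ± 0.17). The co-chaperone Ptges3 rose at 72 h (0.75 ± 0.19), and no gene of the 7 passed contralaterally at either time.

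Of 19 other clock genes, 5 rose and 7 fell on the ipsilateral side at 24 h, and 2 rose and 11 fell at 72 h (medians −0.11 and −0.49; all genes 0.01 and 0.06). These 12 and 13 of 19 stand beside 43% and 48.5% of all genes called (20.1% and 20.7% called lower). The activator Npas2, a relative of CLOCK, was lower by −1.05 ± 0.09 and −1.02 ± 0.14 at the 2 times, the repressor Cry2 by −0.64 ± 0.08 and −1.08 ± 0.13, and the repressor Bhlhe41 was higher by 0.91 ± 0.12 and 1.1997 ± 0.18 (adjusted p from 5.61e-13 to 7.56e-07). On the contralateral side at 24 h, 3 rose and 2 fell (2.1% of all genes called), with Bhlhe41 at 0.58 ± 0.12 (adjusted p = 0.00554), Nfil3, a D-box repressor, at −0.61 ± 0.14 (adjusted p = 0.0101) and Npas2 at −0.27 ± 0.06 (adjusted p = 0.0101). At 72 h none of the 19 passed there, and the nearest was Rorb, a nuclear receptor (−0.44 ± 0.15, adjusted p = 0.123). Npas2 and Bhlhe41 thus passed in the same direction on both sides at 24 h, as Arntl did. The side test passed for 3 higher and 7 lower at 24 h (30.7% of all genes called) and for 3 and 11 at 72 h (48.2%). Over the 10 members themselves the median change was −0.02 and −0.83 ipsilaterally and 0.14 and 0.15 contralaterally at the 2 times.

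The punches also changed in their cell markers, and in bulk tissue fewer cells of a type and less RNA per cell cannot be told apart. All 8 myeloid leukocyte markers rose on the ipsilateral side at both times, with a summed level of 9.79 to 39.5 CPM in naive mice, 54.9 to 577 at 24 h and 234 to 1063 at 72 h, while contralaterally 1 of the 6 tested rose at each time and the sums lay at 11.7 to 34.96 CPM. Contralaterally 2.1% and 0.26% of all genes were called at 24 h and 72 h. Ipsilaterally 22.9% of all genes were called higher and 20.1% lower at 24 h, and 27.8% and 20.7% at 72 h. A count such as 2 of 8 lies near these shares. Of 8 neuronal markers, ipsilaterally 1 rose and 2 fell at 24 h and 1 rose and 4 fell at 72 h, with sums of 6451 to 7625, 5931 to 7425 and, without LF3, 3108 to 6141 CPM. Of 6 microglial markers 1 rose and 3 fell at 24 h (236 to 316 CPM summed, against 287 to 369 in naive mice) and 5 rose at 72 h (741 to 1424 CPM without LF3). Of 6 endothelial markers 2 rose and 1 fell at 24 h and 5 rose at 72 h. Of 6 astrocyte markers 2 rose and 3 fell at 24 h and 3 rose and 1 fell at 72 h, and of 6 oligodendrocyte markers 2 and 4 rose and none fell. Of 6 meningeal markers 1 rose and 5 fell at 24 h and 1 rose and 4 fell at 72 h, and choroid plexus markers, 5 in number, summed to as much as 777 CPM in 1 punch at 72 h. Ipsilateral lymphocyte sums were 4.84 to 17.6 CPM in naive mice and at most 34.7 after injury; that maximum and the contralateral one (66.2) were LF3. No marker was at 0 in any group. The part of these shifts in the ipsilateral falls and rises of the 10 genes was not tested.

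No member passed the test of a difference in injury response between the sexes. At 24 h the ipsilateral change passed for 3 members in females and the same 3 in males, Fkbp5 (0.47 ± 0.17 and 0.44 ± 0.17), Tsc22d3 (−0.61 ± 0.14 and −0.76 ± 0.14) and Arntl (−0.92 ± 0.15 and −1.204 ± 0.14), where 29.1% of genes were called in either sex. At 72 h 7 passed in females and 9 in males (45.5% and 36.3% of genes called). Contralaterally at 24 h none passed in females and 1, Arntl, in males (0.0922% and 1% of genes called), and at 72 h none in either sex (3.09% and 0.00542%). The side test passed for Tsc22d3, Dbp and Arntl in each sex at 24 h (17.6% of genes called in females and 18.4% in males), and for 8 members in females, all but Fkbp5 and Dbp, and 10 in males at 72 h (37.7% and 32.3%). Between naive females and males no member differed (0.0366% of genes called ipsilaterally and 0.0325% contralaterally). The test of the difference between the sexes itself called no gene on either side or time (edgeR 0; 299 and 580 genes at an unadjusted p under 0.05 ipsilaterally at 24 h and 72 h, 584 and 672 contralaterally; DESeq2 1, 0, 0 and 2). The smallest unadjusted p among the members was 0.0596, for Tsc22d3 at 72 h, where the ipsilateral change was −0.44 ± 0.18 in females and −0.84 ± 0.20 in males. Contralateral Arntl at 24 h was −0.33 ± 0.10 in females (adjusted p = 0.263) and −0.53 ± 0.10 in males (adjusted p = 0.00183), a sex difference of 0.20 ± 0.13 that did not pass.

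Slopes of the members on plasma testosterone (males only), androstenedione, DHEA, progesterone and estradiol (log10 levels from the labels) were fitted within groups on each side. None of the 100 member slopes passed (edgeR 0; 17 had an unadjusted p under 0.05 and the smallest adjusted p was 0.367), and over all genes 0% were called in each of the 10 fits. Several animals, most of them in batch C, share an identical estradiol or androstenedione value in the labels, which leaves less variation within groups to fit. Corticosterone, the main glucocorticoid of mice, was not among the hormones.

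Whether the 2 hemispheres of 1 animal deviate together was asked after subtracting the mean of each sex, time and batch. Over 30 relations (10 genes at 3 times), 8 passed a two-sided permutation test, among them Per2 in naive mice (Pearson r = 0.966, Spearman rho = 0.934, n = 13, adjusted permutation p = 0.0123 and 0.0194) and Tsc22d3 at 72 h (r = 0.943, rho = 0.875, n = 15, adjusted permutation p = 0.0284 and 0.0197). Naive Zbtb16, Per1 and Arntl, Sgk1 at 24 h, and Nr1d2 and Arntl at 72 h made up the rest (r from 0.624 to 0.857). Without the 2 animals farthest from the median r was 0.947 for naive Per2 and 0.752 for Tsc22d3 at 72 h, with adjusted permutation p of 0.0541 and 0.0846, so neither passed without them; 2 of the 30 did (naive Per1, r = 0.945, and Dbp at 72 h, r = 0.917). For Dbp at 72 h r was 0.470 (rho = 0.529, adjusted permutation p = 0.257) with LF3 and 0.936 (rho = 0.978, adjusted permutation p = 0.0104, n = 14) without it. Without LF3, 15 of the 30 passed, and batch B alone gave 1 of 10 testable relations. The 72 h pairs include PF1, whose ipsilateral library had a male pattern and whose contralateral library matched its female label. No setting of these relations left out PF1 by itself.

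**Figure D4:**
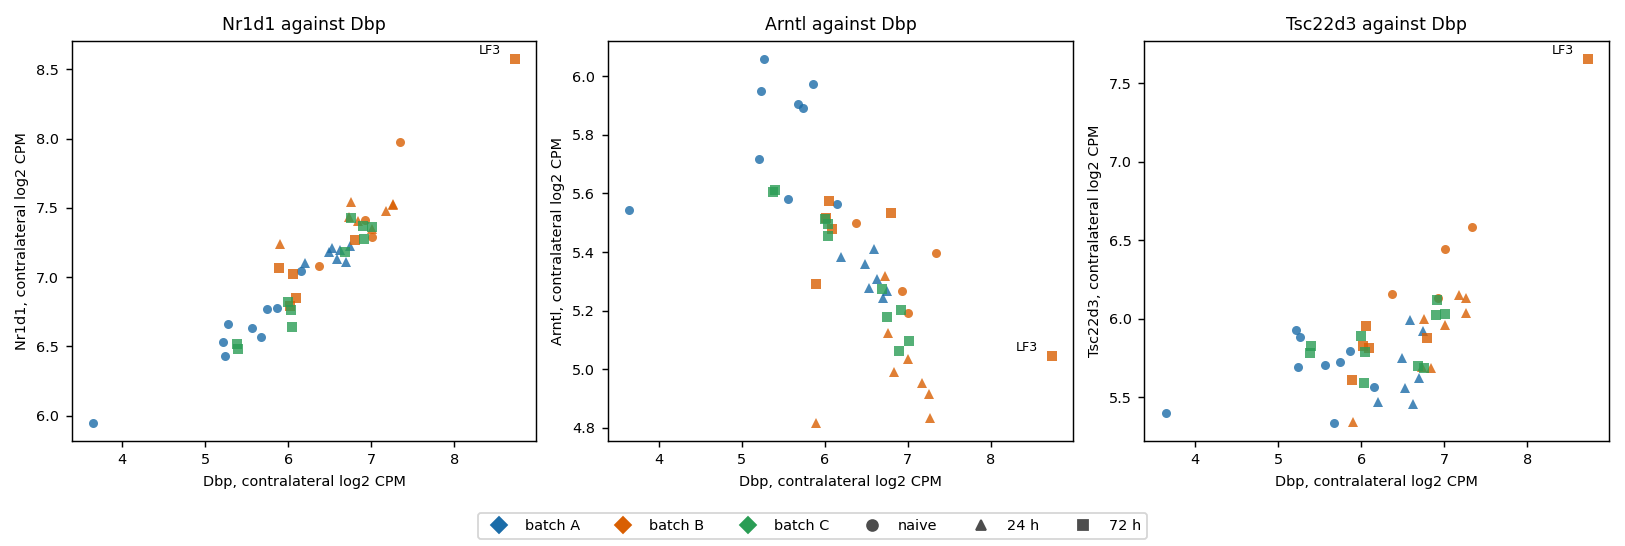
Contralateral log2 CPM of Nr1d1, Arntl and Tsc22d3 (y axes) against that of Dbp (x axis) in each of 44 animals, coloured by batch and shaped by time, with no means removed. Nr1d1 climbs with Dbp, Arntl tends to lie lower where Dbp is high, and LF3 is the rightmost point in each panel.

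Among the 10 transcripts, contralateral deviations were related pair by pair over 44 animals. Of 45 pairs 16 passed. Dbp and Nr1d1 were closest (r = 0.928, rho = 0.904, adjusted permutation p = 0.000225, the raw p of 1e-05 being the smallest that the resampling can give), followed by Tsc22d3 and Dbp (r = 0.725, rho = 0.598, adjusted permutation p = 0.00686), Tsc22d3 and Nr1d1 (r = 0.705), and Per1 and Per2 (r = 0.700, rho = 0.732, adjusted permutation p = 0.000225). Without the 2 farthest animals r was 0.874 for Dbp with Nr1d1, 0.515 for Tsc22d3 with Dbp and 0.755 for Per1 with Per2, and within batch B 0.920, 0.945 and 0.546. Leaving out LF3 left 6 of 45 pairs: Dbp with Nr1d1 (0.887), Per1 with Per2 (0.722), Nr1d2 with Arntl (r = −0.683, rho = −0.684, adjusted permutation p = 0.00435), Tsc22d3 with Sgk1 (0.544) and with Dbp (0.515), and Fkbp5 with Nr1d1 (0.449). With all 44 animals the relation of Nr1d2 to Arntl was r = −0.284 (rho = −0.438, adjusted permutation p = 0.316).

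**Figure D5:**
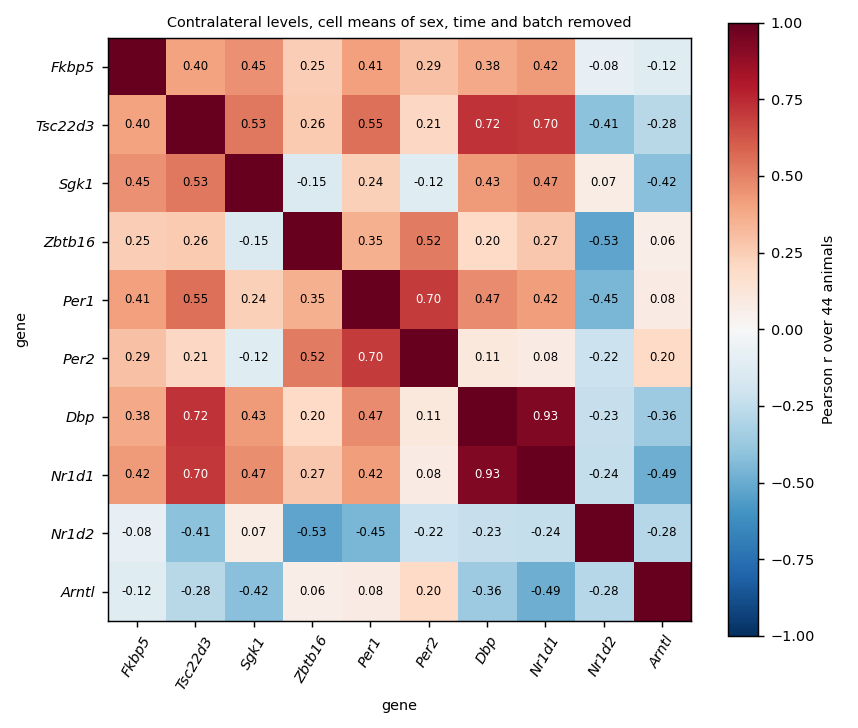
Pearson r of each pair of the 10 transcripts over the contralateral libraries of 44 animals, after removing sex, time and batch means, as a coloured matrix from −1 to 1. The strongest pair is Dbp with Nr1d1 at 0.928.

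Across 13866 genes ranked over the same 44 contralateral libraries, the 5 whose deviations were most like those of Dbp were Bhlhe41 (r = 0.912), Sec14l1 (0.899), Usp2 (0.898), Zdhhc8 (0.897) and Eml2 (0.894). Bhlhe41 and Usp2 are clock-controlled genes from the list above. Without LF3 the nearest was Epha8 (0.897), followed by Usp2 (0.879), Bhlhe41 (0.860), Eml2 (0.859) and Sec14l1 (0.857). For Fkbp5 the nearest were Wipf3 (0.695), Map3k6 (0.667), 9330104G04Rik (0.649), Gm45133 (0.646) and Zscan25 (0.643), all less alike than any of those listed for Dbp. These values describe the libraries, which share batches and depth, and carry no test.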

How the data were processed

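Reads from cortical punches were aligned by the submitters (HISAT2 2.0.5, genome mm10, as their processing notes list). Which program, gene models and strand setting gave the counts is not stated in the labels. The authors deposited raw counts per gene and library, and these deposited counts were used as they stand (0.0615% of them lie in genes with no symbol). Libraries held 10604917 to 26357622 counts. Genes were kept by edgeR's own filter on low counts, scaled by TMM and tested with edgeR 4.0.16 (quasi-likelihood, R 4.3.3) with Benjamini-Hochberg adjustment over all genes at 0.05. Each side was fitted on sex by time groups with a batch term (43 ipsilateral and 44 contralateral libraries), and sides were compared in 86 libraries with the animal as a block. Contrasts are the mean of both sexes. Animals are the replicates, and samples are paired across sides because the labels name the animal of each punch. The letters in the animal names, each of which occurs at a single time, were not a term in any fit. Printed CPM are TMM-scaled over 88 libraries (genes above 0.5 CPM in at least 6); log2 CPM add a prior count of 2. For relations, log2 CPM had the mean of each sex, time and batch removed and were permuted within those cells (100000 draws).

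Alternatives were RLE scaling, no scaling, no filter, DESeq2 1.42.0, no batch term, single batches, leaving out each animal, limma 3.58.1 on side differences and others. Some of these were added after the data were seen. They are leaving out LF3 in the paired fit and in the relations, and every limma fit on side differences. The limma fits used all animals, batch A alone, or all but 1 animal in turn. The fit with an effect per batch at 24 h was also added. On simulated counts, 82.5% of 1.5-fold and 100.0% of 2-fold changes were recovered for ipsilateral 24 h against naive (3864 genes). For contralateral 24 h against naive these were 78.8% and 97.0% (3881 genes). For the side test at 24 h they were 54.2% and 99.0% (3771 genes). Of the calls made there 5.35%, 2.25% and 3.95% were false, in the same order of comparisons. The simulated counts gave every gene the same spread and held no differences between batches, sexes or animals, unlike the data. Recovery at the spread of each of the 10 members was not tested, so these shares do not describe a single member. All 10 members are named, with the 3 genes of each pathway list that have the smallest adjusted p in a comparison and the 5 genes most like Dbp and Fkbp5. The members and lists were chosen with earlier results of these data known. Gene positions are from GENCODE M21 (GRCm38).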

Additional observations from a re-analysis of the deposited data

Results flagged for a closer look

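Within groups of 6 to 9 libraries of 1 sex, time and side, 11 values in 5 libraries stood far from the rest, out of 120 groups tested. Chance alone marks about 1 in 20 groups. The groups mix batches, which this count does not take into account. The female LF3 at 72 h gave 8 of them. Contralaterally it had 426 CPM of Dbp, 381 of Nr1d1, 254 of Per1 and 201 of Tsc22d3, all above its group, and 74.6 of Nr1d2, below it. Ipsilaterally it had 97.9 CPM of Tsc22d3 (high), and 13.8 of Fkbp5 and 51.1 of Nr1d1 (low). The other 3 were ipsilateral Nr1d2 at 89.0 CPM in female FF3 at 24 h and at 75.2 in naive female KF3, and contralateral Sgk1 at 83.1 in male LM2 at 72 h.

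The injury effect differed between the hemispheres by its own test (ipsilateral minus contralateral, log2, edgeR), which called 30.7% of all genes at 24 h and 48.2% at 72 h. At 24 h this held for Fkbp5 (0.31) and Sgk1 (0.26), higher on the injured side, and for Tsc22d3 (−0.49), Dbp (−1.22), Nr1d1 (−0.37), Nr1d2 (−0.34) and Arntl (−0.59), lower there. At 72 h it held for Fkbp5 (0.43), Sgk1 (0.80), Tsc22d3 (−0.62), Zbtb16 (−1.204), Per1 (−0.84), Per2 (−0.74), Dbp (−0.86), Nr1d1 (−0.96), Nr1d2 (−0.52) and Arntl (−0.88). In batch B alone no member passed at 24 h, and Nr1d2 at 72 h was at −0.085 there. In limma on side differences Fkbp5 missed the threshold at 24 h (adjusted p = 0.0536).

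The 24 h effect also differed between batches for 3 members on each side. Batch B minus batch A was −0.83 for Fkbp5, −0.95 for Dbp and −0.76 for Nr1d1 ipsilaterally, and −0.82, −1.12 and −0.59 contralaterally, where 9.72% and 3.8% of all genes were called. The 2 sides of these comparisons come from the same animals.

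The ipsilateral library of PM1, whose labels contradict each other and which entered no comparison, had 119 CPM of Sgk1, above the naive ipsilateral maximum of 94.4. It lay below the naive ipsilateral minimum for Tsc22d3 (37.7 against 46.6 CPM), Zbtb16 (16.2 against 46.3), Per1 (44.5 against 51.8) and Per2 (18.3 against 23.7). The same held for Dbp (22.7 against 25.2), Nr1d1 (54.3 against 81.8) and Arntl (25.2 against 34.8). Fkbp5 and Nr1d2 lay within the naive range.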

How the results depend on the processing

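Single-gene values kept their side of the threshold in 8824 gene-by-setting cases, became stronger in 39 and weaker in 178, and 4 that passed in either fit changed sign. Of the 8824, 8437 kept their direction and 387, which passed neither in the report's fit nor under the alternative, changed sign. The 4 were Fkbp5 ipsilaterally at 24 h in batch B alone (−0.0053, adjusted p = 0.990), Tsc22d3 ipsilaterally from 24 h to 72 h without LF3 (−0.33, adjusted p = 0.00973; from −0.33 to 0.17 over the animals left out), Arntl contralaterally at 72 h with no batch term (−0.30) and the relation of Fkbp5 to Per1 in batch B alone (r = −0.032); the cause was not tested. Members called ipsilaterally at 24 h were 3 in batch B alone (5 in the report), and contralaterally at 24 h 1 with no scaling, 1 with no filter and 0 in batch B alone (2 in the report). Contralaterally at 72 h 1 was called with no batch term, and from 24 h to 72 h 0 with no scaling, no batch term or batch B alone. In the side test the animal replicate block mattered at 24 h: without it 4 members were called and in batch B alone 0, against 7, and at 72 h 6 in batch B alone against 10. Left and right relations that passed were 14 with batch ignored, 1 in batch B alone, 2 without the 2 farthest animals and 15 without LF3, against 8, and pairs among members 2, 7 and 6 in batch B alone, without the 2 farthest and without LF3, against 16.

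Leaving out each animal in turn gave 5 to 5 members ipsilaterally at 24 h, 8 to 10 at 72 h and 4 to 5 between the times, 1 to 3 contralaterally at 24 h and 1 to 2 between the times. In the limma fit on side differences it gave 4 to 7 at 24 h and 10 to 10 at 72 h; the edgeR side fit was not run animal by animal. In the side test at 24 h Fkbp5 missed the threshold without PF1 (adjusted p = 0.0516) and in limma (0.0536), Sgk1 with no filter (0.0502) and Nr1d1 with a side by batch term (0.0751). With that term Fkbp5 (0.38, 0.118) and Nr1d2 (−0.28, 0.184) missed it at 72 h. Dbp ipsilaterally at 24 h missed it with no scaling (0.0650), no batch term (0.121) or batch A alone (0.434). Sgk1 and Nr1d2 ipsilaterally at 72 h missed it in batch B alone (0.127 and 0.191), as did Dbp with no batch term (−0.38, 0.206).

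Over all genes, calls fell in batch B alone from 8216 to 4297 ipsilaterally at 24 h, from 7078 to 3854 between the times, from 6120 to 1435 and 9614 to 3653 in the side test at 24 h and 72 h, and from 388 to 0 contralaterally at 24 h (238 with no scaling or no filter, 202 in batch A, 621 with DESeq2). Contralaterally at 72 h 48 became 1456 with no batch term, 3 in batch B alone and 84 with DESeq2, and between the times 1698 became 357 with no scaling, 699 with no batch term, 3 in batch B alone and 1025 with DESeq2. Sides in naive mice gave 17 with no filter against 0, and the ipsilateral naive sexes 0 in batch B alone and 3 with DESeq2 against 7. No scaling shifted the median of all genes by −0.11 contralaterally from 24 h to 72 h and by 0.11 in the side test at 72 h.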
